A study of Tachysurus vachellii and Tachysurus fulvidraco x Tachysurus vachelli and Tachysurus fulvidraco with 9 samples.

Results

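Transcripts of insulin-like growth factor 2 (IGF2) were followed in the liver of a hybrid catfish and both of its parental species. Also followed were IGFALS, the acid labile subunit of the complex that carries IGF in blood, and the IGF-binding proteins IGFBP1, igfbp2a, igfbp2b and IGFBP3. The rows of the expression table were chosen by name: every row whose symbol, ignoring case, was igf2, IGFALS, IGFBP1, igfbp2a, igfbp2b or IGFBP3. These were 12 of 57710 assembled rows and 6 of 11137 symbols. All 12 rows and all 6 symbol sums reached the level needed for a test, a TPM (transcripts scaled per length to a fixed total) of 1 in at least 3 libraries.

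The libraries came from poly(A) RNA of the liver of juvenile fish, 3 libraries from each of 3 lines. The hybrid, called Huangyou-1, had a Pelteobagrus fulvidraco mother and a P. vachelli father. The parental lines were P. vachelli, which the labels also call Tachysurus vachellii, and P. fulvidraco. The lines received no further treatment that the labels name, and each was kept in its own 3 aquaria at 28 °C, so line and rearing cannot be told apart. Whether a library is 1 fish or several is not stated. The p-values therefore measure the spread between these libraries, which may be technical.

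IGF2 is a peptide growth factor that acts through the IGF1 receptor, and the fish liver makes it throughout life under the influence of growth hormone. Most IGF in blood is held by binding proteins, which lengthen its stay there and decide how much of it reaches the receptor. In mammals IGFBP3 carries IGF in a complex with the acid labile subunit, while IGFBP1 rises with fasting, low oxygen and stress and holds IGF away from its receptor. Fish kept duplicates of several of these genes, such as igfbp2a and igfbp2b.

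All values are TPM, which are scaled for transcript length and to a fixed total, so they are shares of a library. The level of a symbol is the sum over its rows. If rows are pieces of the same transcript, their sum counts it more than once, which limits comparisons of level between symbols. The depth behind the TPM is unknown. Each library had between 36107 and 41016 rows at 1 TPM or more. P. fulvidraco libraries 1 and 2 stood apart through the egg yolk list, whose 2 measured symbols summed to 37013 and 13576 TPM there, against 37.2 TPM in P. fulvidraco 3 and at most 4.67 TPM in any other library. The summed level of the 18 measured hepatocyte markers, out of a list of 29, ran at 74832 to 79327 TPM in the hybrid, 52269 to 57838 in P. vachelli and 65925 to 72464 in P. fulvidraco, and none of them was at 0. Much of that order came from hpx, here described as a warm temperature acclimation protein of 65 kDa. It averaged 24026 TPM in the hybrid, 4639 in P. vachelli and 12628 in P. fulvidraco. The other 17 hepatocyte markers summed to 51814 to 54776 TPM in the hybrid, 48175 to 52141 in P. vachelli and 53890.1 to 59425 in P. fulvidraco. RNA of the exocrine pancreas was also present. The 11 measured acinar markers, out of 25, summed to 6812 to 8994 TPM in the hybrid, 2600 to 4369 in P. vachelli and 2998 to 7088 in P. fulvidraco. These sums hold Prss2, here described as complement C1s subcomponent-like, which averaged 299 TPM in the hybrid, 519 in P. vachelli and 0 in P. fulvidraco. They also hold Cpb2, described as carboxypeptidase B2, at 383, 414 and 411 TPM in the same order. The sums are thus not a measure of acinar RNA alone. The 8 measured macrophage markers, out of 18, summed to 471 to 625 TPM in the hybrid, 764 to 901 in P. vachelli and 359 to 514 in P. fulvidraco. MFAP4 carried the high P. vachelli sum, and the other 7 macrophage markers summed to 195 to 293 TPM in the hybrid, 186 to 192 in P. vachelli and 142 to 237 in P. fulvidraco. For the 15 measured endothelial markers, out of 19, the sums were 59.6 to 92.8 TPM in the hybrid, 92.75 to 110.5 in P. vachelli and 63.0 to 86.2 in P. fulvidraco. The 7 measured erythrocyte markers, out of 16, summed to 7144 to 9356 TPM in the hybrid and 6274 to 9255 in P. vachelli. In P. fulvidraco they summed to 3592 to 5368 TPM, below both other lines. Without hba, the other 6 summed to 2127 to 2648, 1670 to 2535 and 1289 to 1757 TPM in the same order. In whole liver, fewer cells of a type and less RNA per cell cannot be told apart, and the part of such markers in the results was not tested.

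Among the members, the summed transcripts of IGFBP3 differed between all 3 lines. Those of igfbp2a set P. vachelli apart from the hybrid and from P. fulvidraco, and those of IGFALS differed between the parents. The sums of igf2, IGFBP1 and igfbp2b gave no called difference. IGFBP3 was highest in P. fulvidraco, lowest in P. vachelli and between them in the hybrid. The calls of the hybrid in this sum were matched only by the row DN16920_c0_g2, which was almost missing in P. vachelli. Tests used limma on log2(TPM + 1), fitted to the 9 libraries together, and a difference is called where the p-value, adjusted by Benjamini-Hochberg over all symbols, was at most 0.05. A value after ± is the SD of 3 libraries beside a TPM level and the standard error beside a log2 difference. Differences are the line named first minus the line named second.

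Against P. vachelli, the hybrid was higher for 2 of the 6 symbol sums, igfbp2a and IGFBP3, and lower for 0. Over all tested symbols 30.5% were called in this comparison, 13.7% higher and 16.9% lower. Against P. fulvidraco, the hybrid was lower for 1 of the 6, IGFBP3, and higher for 0, where 24.6% of all symbols were called, 10.6% higher and 14.1% lower. Against the mid-parent, the mean of both parents on the log scale, limma called 0 of the 6 sums, while 2 of them, igfbp2a and IGFBP3, had an unadjusted p under 0.05. Of all symbols 10.8% were called there at the adjusted threshold, 4.61% higher and 6.2% lower. No share of all symbols was taken at the unadjusted threshold. Counts at an unadjusted p, here and in the lists below, are thus no result about the members or lists. P. vachelli was lower than P. fulvidraco for 3 of the 6, IGFALS, igfbp2a and IGFBP3, and higher for 0, where 48.6% of all symbols were called, 23.9% higher and 24.7% lower. The counts lie near these shares and are no result about the members as a group. The median log2 difference of the 6 sums was 0.30 in the hybrid against P. vachelli, 0.0083 against P. fulvidraco and 0.12 against the mid-parent, and −0.36 in P. vachelli against P. fulvidraco. The medians over all symbols were −0.054, −0.047, −0.035 and −0.015 in the same order. These comparisons share libraries and are not independent of each other.

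**Figure D1:**
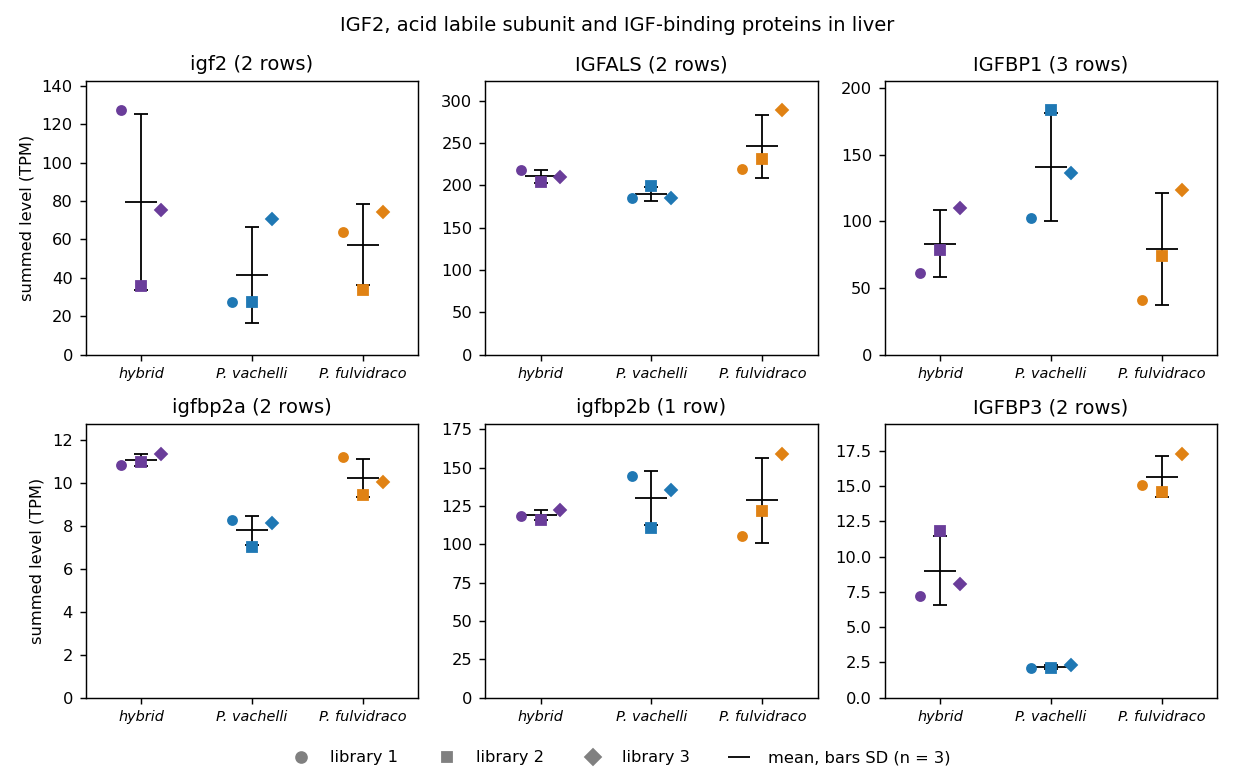
Summed level in TPM (vertical axes, each from 0) of the rows of each symbol in the 3 lines. Points are libraries, and the horizontal line and bars are the mean and SD of 3 libraries. IGFBP3 lies at 7.18 to 11.8 TPM in the hybrid, at 2.10 to 2.35 in P. vachelli and at 14.6 to 17.3 in P. fulvidraco, with no overlap, while the igf2 libraries of the 3 lines overlap widely.

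The ligand igf2 varied more between libraries of a line than between lines. Its 2 rows summed to 127, 36.0 and 75.5 TPM in the hybrid libraries, to 27.2, 27.2 and 70.4 TPM in P. vachelli and to 63.8, 33.6 and 74.5 TPM in P. fulvidraco. Each line thus held both low and high libraries, and the ranges overlapped. Library 2 was the lowest in each line, in P. vachelli only just below library 1. The highest library was 3.54 times the lowest in the hybrid, 2.59 times in P. vachelli and 2.22 times in P. fulvidraco. The SD of igf2 within lines, 0.77 on the log2 scale, was larger than that of 98.0% of the 10815 tested symbols, whose median was 0.20. It was also larger than that of all of the 200 symbols nearest to it in level.

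With that spread the igf2 differences were not called. For the hybrid minus P. vachelli the log2 difference was 0.89 ± 0.52 (95% interval −0.28 to 2.06, adjusted p = 0.226). For the hybrid minus P. fulvidraco it was 0.37 ± 0.52 (95% interval −0.80 to 1.54, adjusted p = 0.642), and its sign turned to −0.056 without hybrid 1. The hybrid minus the mid-parent was 0.63 ± 0.45 (adjusted p = 0.405), and P. vachelli minus P. fulvidraco was −0.53 ± 0.52 (adjusted p = 0.428). Leaving out 1 library moved the hybrid minus P. vachelli between 0.47 (without hybrid 1) and 1.37 (without hybrid 2), the hybrid minus the mid-parent between 0.21 and 1.103 with the same libraries left out, and P. vachelli minus P. fulvidraco between −0.97 (without P. vachelli 3) and −0.30, with no call in any case. These intervals leave room for differences of more than a doubling, so the lines are not shown to be alike in igf2.

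The 2 igf2 rows carry descriptions from different species. The abundant row, DN18191_c0_g5, is described as the IGF2 of the species of the P. vachelli line and held 76.0 to 95.1% of the sum. It stood at 121, 27.3 and 64.8 TPM in the hybrid, at 21.5, 20.9 and 64.0 TPM in P. vachelli and at 58.6, 26.4 and 65.1 TPM in P. fulvidraco. The minor row, DN18724_c2_g2, is described as the IGF2 of the P. fulvidraco line and stood at 6.18, 8.64 and 10.7 TPM in the hybrid, at 5.75, 6.26 and 6.45 TPM in P. vachelli and at 5.19, 7.16 and 9.35 TPM in P. fulvidraco. Both rows were present in both parents, so neither marks the allele of a parent. Duplicates, forms of a species and fragments of a transcript cannot be told apart from these names. The RefSeq gene table of P. vachelli (assembly HZAU_Pvac_v1) lists igf2a and igf2b, and the deposited names do not separate them.

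A row with no symbol but described as IGF-I, the ligand that carries most of the growth signal after birth in mammals, was looked up after the values had been seen. It stood at 1, 1.14 and 1.78 TPM in the hybrid, at 0.49, 0.29 and 1.07 TPM in P. vachelli and at 6.38, 3.94 and 3.34 TPM in P. fulvidraco. All P. fulvidraco libraries were above all others. In the fit over rows, the hybrid was lower than P. fulvidraco, at −1.24 ± 0.28 (adjusted p = 0.0156). The row reached the level for a test through the hybrid and P. fulvidraco, so no call between P. vachelli and P. fulvidraco is drawn from it. No call was made for the hybrid minus P. vachelli, at 0.53 ± 0.28 (adjusted p = 0.192).

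IGFBP3, the main carrier of IGF in mammalian blood, had the largest differences between lines among the members. Its sum was 7.18, 11.8 and 8.06 TPM in the hybrid, 2.10, 2.10 and 2.35 in P. vachelli and 15.1, 14.6 and 17.3 TPM in P. fulvidraco. None of the 3 ranges overlapped. The hybrid mean of 9.01 ± 2.44 TPM was 4.13 times the P. vachelli mean of 2.18 ± 0.144 TPM and 0.575 times the P. fulvidraco mean of 15.7 ± 1.43 TPM. On the log2 scale the hybrid was higher than P. vachelli by 1.63 ± 0.17 (95% interval 1.25 to 2.005, adjusted p = 0.000206). It was lower than P. fulvidraco, at −0.76 ± 0.17 (95% interval −1.14 to −0.38, adjusted p = 0.0117). P. vachelli was lower than P. fulvidraco, at −2.39 ± 0.17 (95% interval −2.76 to −2.01, adjusted p = 6.5e-06). Without both P. fulvidraco libraries rich in egg yolk transcripts, the hybrid minus P. fulvidraco was −0.90 (adjusted p = 0.0791), in a fit that takes the remaining P. fulvidraco library to vary like the other lines.

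The hybrid lay between its parents in IGFBP3, and where it lay depended on the scale. Minus the log-scale mid-parent it was 0.43 ± 0.14 (adjusted p = 0.0894), which was not called. The hybrid mean was 1.01 times the mean of both parental means in TPM. With the mid-parent taken on the linear scale the log2 difference was −0.012 (adjusted p = 0.968). That test kept the standard error of the log-scale difference, so its p-value is only a rough guide.

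The 2 IGFBP3 rows behaved differently. DN16920_c0_g2 was almost missing in P. vachelli, with 4.92, 4.70 and 4.55 TPM in the hybrid, 0.02, 0.00 and 0.05 in P. vachelli and 8.33, 8.43 and 10.1 TPM in P. fulvidraco. The hybrid libraries lay close together at 52.8% of the P. fulvidraco mean, which is 105.3% of the linear mid-parent. This row passed the level for a test only through the hybrid and P. fulvidraco, so a difference from P. vachelli came with that choice. Its level was lower in the hybrid than in P. fulvidraco, at −0.79 ± 0.15 (adjusted p = 0.007). The hybrid minus the log-scale mid-parent was 0.84 ± 0.13 (adjusted p = 0.00546). That mid-parent includes P. vachelli, near 0 in this row, so the call came with the same choice and is no result. Minus the linear mid-parent the difference was 0.06 (adjusted p = 0.824). That test kept the standard error of 0.13 from the log-scale difference, so its p-value is only a rough guide.

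The other IGFBP3 row, DN22369_c1_g1, was present in every library. It stood at 2.26, 7.08 and 3.51 TPM in the hybrid, at 2.08, 2.10 and 2.30 TPM in P. vachelli and at 6.76, 6.17 and 7.20 TPM in P. fulvidraco. The hybrid libraries spread over nearly the whole range between the parents, with hybrid 2 inside the P. fulvidraco range and hybrid 1 inside that of P. vachelli. P. vachelli was lower than P. fulvidraco, at −1.29 ± 0.29 (adjusted p = 0.00559). In this row the hybrid was not called against P. vachelli, at 0.64 ± 0.29 (adjusted p = 0.133), or P. fulvidraco, at −0.65 ± 0.29 (adjusted p = 0.150). The calls of the hybrid in the IGFBP3 sum were thus matched only by DN16920_c0_g2. Whether the rows are duplicates, forms of a species or pieces of a transcript cannot be told apart.

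**Figure D2:**
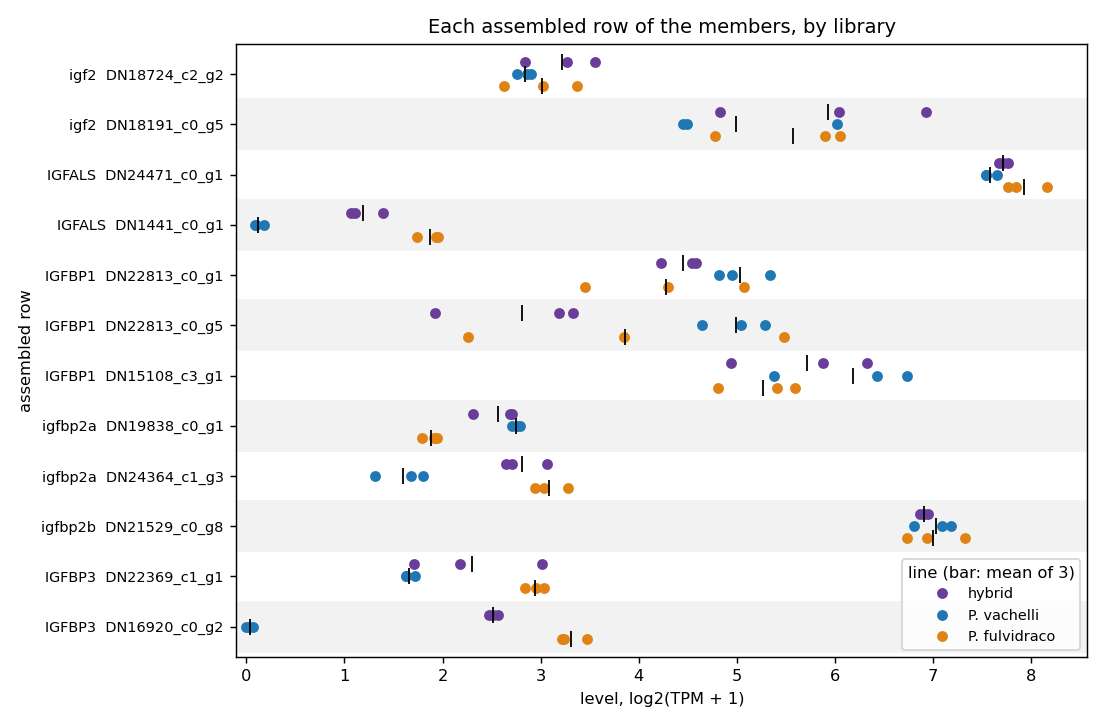
Level of each of the 12 assembled rows as log2(TPM + 1) (horizontal axis) in the hybrid, P. vachelli and P. fulvidraco. Points are libraries and the vertical bar is the mean of 3. The row DN16920_c0_g2 of IGFBP3 lies at 0.00 to 0.05 TPM in P. vachelli, and the 2 igfbp2a rows order the parents in opposite directions.

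The duplicates igfbp2a and igfbp2b encode IGFBP2, a binding protein of liver and plasma that limits the action of IGF in zebrafish. The transcripts of igfbp2b were the more abundant by far. They stood at 119, 116 and 123 TPM in the hybrid, at 144, 110.5 and 136 TPM in P. vachelli and at 105, 122 and 159 TPM in P. fulvidraco. The hybrid libraries lay within the ranges of both parents. For igfbp2b the hybrid minus P. vachelli was −0.12 ± 0.15 (95% interval −0.47 to 0.23, adjusted p = 0.600), and minus P. fulvidraco it was −0.09 ± 0.15 (95% interval −0.44 to 0.26, adjusted p = 0.710). P. vachelli minus P. fulvidraco was 0.03 ± 0.15 (95% interval −0.32 to 0.38, adjusted p = 0.893).

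The sum of igfbp2a was low and nearly constant within lines. It was 10.8, 11.0 and 11.4 TPM in the hybrid, 8.26, 7.01 and 8.10 in P. vachelli and 11.2, 9.43 and 10.0 TPM in P. fulvidraco. The P. vachelli libraries lay under all the others. The hybrid was higher than P. vachelli by 0.46 ± 0.11 (95% interval 0.22 to 0.70, adjusted p = 0.0119). P. vachelli was lower than P. fulvidraco, at −0.35 ± 0.11 (adjusted p = 0.0228), a call that was lost without P. vachelli 2 (adjusted p = 0.0851), without P. fulvidraco 1 (adjusted p = 0.0728) and without both P. fulvidraco libraries rich in egg yolk transcripts (adjusted p = 0.138). Neither of the remaining differences was called: the hybrid minus P. fulvidraco was 0.11 ± 0.11 (adjusted p = 0.505), and minus the mid-parent it was 0.28 ± 0.09 (adjusted p = 0.086). That last difference was called after quantile normalization (adjusted p = 0.0362) and after median-ratio scaling (adjusted p = 0.0476).

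The steady igfbp2a sum was made of 2 rows that ordered the parents in opposite ways. DN19838_c0_g1 stood at 5.54, 5.43 and 3.96 TPM in the hybrid, at 5.77, 5.52 and 5.90 TPM in P. vachelli and at 2.46, 2.77 and 2.85 TPM in P. fulvidraco. P. vachelli was higher than P. fulvidraco in this row by 0.87 ± 0.15 (adjusted p = 0.00143), and the hybrid was higher than P. fulvidraco by 0.68 ± 0.15 (adjusted p = 0.0139). DN24364_c1_g3 stood at 5.28, 5.54 and 7.39 TPM in the hybrid, at 2.49, 1.49 and 2.20 TPM in P. vachelli and at 8.71, 6.66 and 7.18 TPM in P. fulvidraco. Here P. vachelli was lower than P. fulvidraco, at −1.48 ± 0.19 (adjusted p = 0.000253), and the hybrid was higher than P. vachelli by 1.21 ± 0.19 (adjusted p = 0.00194). The first row made up 34.9 to 51.2% of the sum in the hybrid, 69.9 to 78.7% in P. vachelli and 22.0 to 29.4% in P. fulvidraco, so the hybrid lay between its parents with no overlap. Whether the rows are the forms of the parents or pieces of a transcript counted unequally cannot be told apart.

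IGFBP1, the binding protein that responds to fasting and low oxygen, gave no called difference in the sum of its 3 rows. The sum was 61.1, 78.25 and 110.2 TPM in the hybrid, 102, 183 and 136 in P. vachelli and 40.7, 73.6 and 123 TPM in P. fulvidraco. P. vachelli 1 lay below hybrid 3 and P. fulvidraco 3, so P. vachelli overlapped both other lines. For the hybrid minus P. vachelli the difference was −0.75 ± 0.39 (95% interval −1.63 to 0.12, adjusted p = 0.175). That of the hybrid minus P. fulvidraco was 0.17 ± 0.39 (95% interval −0.71 to 1.04, adjusted p = 0.790) and turned to −0.05 without hybrid 3 and to −0.24 without P. fulvidraco 1. P. vachelli minus P. fulvidraco was 0.92 ± 0.39 (95% interval 0.05 to 1.79, adjusted p = 0.077). It was called without P. fulvidraco 3, at 1.30 (adjusted p = 0.0151), and after quantile normalization, at 1.03 (adjusted p = 0.0465). Without both P. fulvidraco libraries rich in egg yolk transcripts it was 0.15 (adjusted p = 0.792), and over single libraries left out it ran from 0.52 to 1.30. The SD within lines of IGFBP1, 0.57 on the log2 scale, was larger than that of 93.9% of all symbols.

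Among the IGFBP1 rows, DN22813_c0_g5 differed most. It stood at 9.04, 2.79 and 8.09 TPM in the hybrid, at 31.9, 38.1 and 23.9 TPM in P. vachelli and at 3.79, 13.4 and 43.5 TPM in P. fulvidraco. The hybrid libraries lay under all P. vachelli libraries and overlapped the wide range of P. fulvidraco, and the hybrid mean was 25.8% of the linear mid-parent. Its difference from P. vachelli was −2.18 ± 0.72 with an adjusted p of 0.0501, just over the threshold. The neighbouring row DN22813_c0_g1 stood at 22.3, 17.8 and 23.0 TPM in the hybrid, at 29.9, 39.3 and 27.2 TPM in P. vachelli and at 9.94, 18.6 and 32.7 TPM in P. fulvidraco. The third, DN15108_c3_g1, stood at 29.7, 57.7 and 79.1 TPM in the hybrid, at 40.6, 105.7 and 85.2 TPM in P. vachelli and at 26.9, 41.6 and 47.2 TPM in P. fulvidraco. None of the 3 IGFBP1 rows was called in any comparison. The RefSeq table lists igfbp1a, which lies beside igfbp3, and igfbp1b, and the deposited names do not separate them.

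IGFALS, the acid labile subunit, was the most abundant member in every line. Its sum was 218, 203 and 210.4 TPM in the hybrid, 185, 199.6 and 185 in P. vachelli and 219, 231 and 289 TPM in P. fulvidraco. In these sums the 3 lines did not overlap, with the hybrid between its parents, although its gaps to either parent were small. The gap to P. fulvidraco was absent in the acid labile subunit row alone. P. vachelli was lower than P. fulvidraco, at −0.36 ± 0.11 (95% interval −0.60 to −0.12, adjusted p = 0.0186), a call that was lost without P. vachelli 1 (adjusted p = 0.0569) and without P. vachelli 3 (adjusted p = 0.0599). The hybrid minus P. vachelli was 0.15 ± 0.11 (adjusted p = 0.321). The hybrid minus P. fulvidraco was −0.21 ± 0.11 (adjusted p = 0.170). Without both P. fulvidraco libraries rich in egg yolk transcripts it was −0.45. That value rests on P. fulvidraco 3 alone, the library highest in IGFALS. Without P. fulvidraco 3 instead, the hybrid minus P. fulvidraco was −0.095 (adjusted p = 0.423). The hybrid minus the mid-parent was −0.03 ± 0.09 (adjusted p = 0.853). Among the 6 sums, the lines did not overlap for 3 in the hybrid against P. vachelli, for 2 in the hybrid against P. fulvidraco and for 3 in P. vachelli against P. fulvidraco. The shares over all tested symbols were 46.7%, 39.8% and 60.3% in the same order.

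Between 98.76% and 99.97% of the IGFALS sum came from the row described as the acid labile subunit, DN24471_c0_g1. The other row with this symbol, DN1441_c0_g1, is described as toll-like receptor 3, a sensor of viral RNA that shares leucine-rich repeats with the acid labile subunit. It stood at 1.16, 1.09 and 1.62 TPM in the hybrid, at 0.13, 0.06 and 0.07 TPM in P. vachelli and at 2.33, 2.87 and 2.81 TPM in P. fulvidraco. The hybrid was lower than P. fulvidraco in it, at −0.68 ± 0.19 (adjusted p = 0.0316). It passed the level for a test only through these lines, so its calls against P. vachelli came with that choice. With the acid labile subunit row alone, an alternative chosen after the descriptions had been seen, every IGFALS comparison kept its direction and its side of the threshold. The hybrid and P. fulvidraco then no longer stood apart, since hybrid 1 and P. fulvidraco 1 were both at 216.74 TPM.

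Taken as rows, the hybrid was higher than P. vachelli in 3 of the 12 and lower in 0, where 30% of all tested rows were called, 15.5% higher and 14.6% lower. Against P. fulvidraco 1 row was higher and 2 were lower in the hybrid, where 21.8% of all rows were called, 11.9% higher and 9.88% lower. Against the mid-parent 1 row was higher and 0 were lower, where 8.51% were called, 5.64% higher and 2.87% lower. P. vachelli was higher than P. fulvidraco in 1 row and lower in 5, where 54.4% were called, 27.4% higher and 26.9% lower. The rows DN16920_c0_g2 and DN1441_c0_g1, near 0 in P. vachelli and tested only through the other lines, gave 2 of the 3 calls of the hybrid against P. vachelli and 2 of the 5 lower calls of P. vachelli against P. fulvidraco. DN16920_c0_g2 also gave the call against the mid-parent, which includes P. vachelli, so that call came with the same choice. The rows of a symbol share their gene or a close relative and are not separate measurements of a line.

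**Figure D3:**
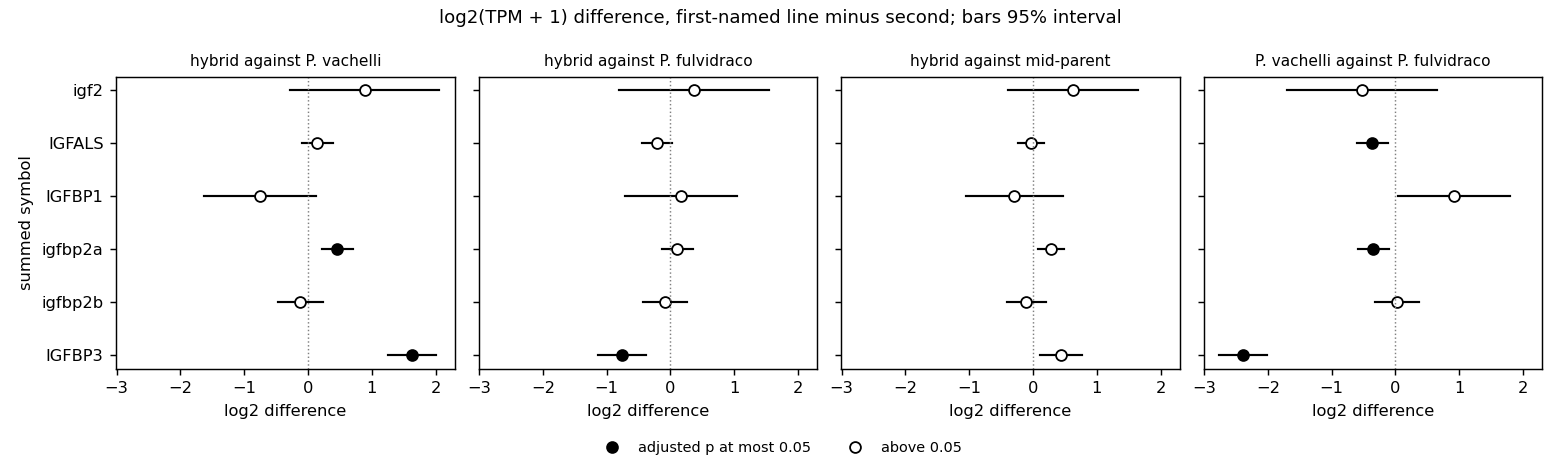
Difference in log2(TPM + 1) (horizontal axis) of each summed symbol in 4 comparisons, the line named first minus the second. Circles are the limma estimate, bars its 95% interval, and filled circles an adjusted p of at most 0.05. IGFBP3 is called in all 3 comparisons between lines, at 1.63, −0.76 and −2.39, and the widest intervals are those of igf2 and IGFBP1.

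The order of the levels within a line was similar at the top and differed at the bottom. In the hybrid, IGFALS came first with 210.6 ± 7.27 TPM, then igfbp2b with 119 ± 3.33 TPM, and these did not overlap. IGFBP1 with 83.2 ± 24.9 TPM and igf2 with 79.6 ± 45.8 TPM overlapped each other, as did igfbp2a with 11.0 ± 0.273 TPM and IGFBP3 with 9.01 ± 2.44 TPM. In P. vachelli, IGFALS with 189.9 ± 8.43 TPM was followed by IGFBP1 with 140.6 ± 40.6 TPM and igfbp2b with 130.2 ± 17.6 TPM, which overlapped. Then came igf2 with 41.6 ± 25.0 TPM, igfbp2a with 7.79 ± 0.680 TPM and IGFBP3 with 2.18 ± 0.144 TPM, with no overlap between them. In P. fulvidraco, IGFALS with 246 ± 37.2 TPM led, and igfbp2b with 129 ± 27.7 TPM, IGFBP1 with 79.2 ± 41.6 TPM and igf2 with 57.3 ± 21.2 TPM overlapped from neighbour to neighbour. IGFBP3 with 15.7 ± 1.43 TPM stood above igfbp2a with 10.2 ± 0.884 TPM there, without overlap, while in P. vachelli the order of this pair was the opposite.

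The 4 binding proteins together made up 222 ± 27.5 TPM in the hybrid, 281 ± 22.8 in P. vachelli and 234 ± 70.05 in P. fulvidraco. Most of it was igfbp2b and IGFBP1. Of this total, igfbp2b held 54.0 ± 5.74% in the hybrid, 46.9 ± 9.89% in P. vachelli and 56.0 ± 4.89% in P. fulvidraco. IGFBP1 held 36.9 ± 6.45% in the hybrid, 49.5 ± 10.4% in P. vachelli and 32.3 ± 8.16% in P. fulvidraco. The share of IGFBP3 spanned 3.20 to 5.43% in the hybrid, 0.694 to 0.832% in P. vachelli and 5.58 to 8.77% in P. fulvidraco, and these ranges did not overlap. The share of igfbp2a spanned 4.50 to 5.47% in the hybrid, 2.32 to 3.21% in P. vachelli and 3.24 to 6.49% in P. fulvidraco. The shares add up to a fixed total and were not tested.

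Set against the ligand, the summed binding proteins were 1.56, 6.03 and 3.34 times the igf2 level in the hybrid libraries, 9.45, 11.1 and 4.01 times in P. vachelli and 2.70, 6.53 and 4.16 times in P. fulvidraco. The lines overlapped in this ratio. It is a ratio of transcripts, and the proteins in blood were not measured here.

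**Figure D4:**
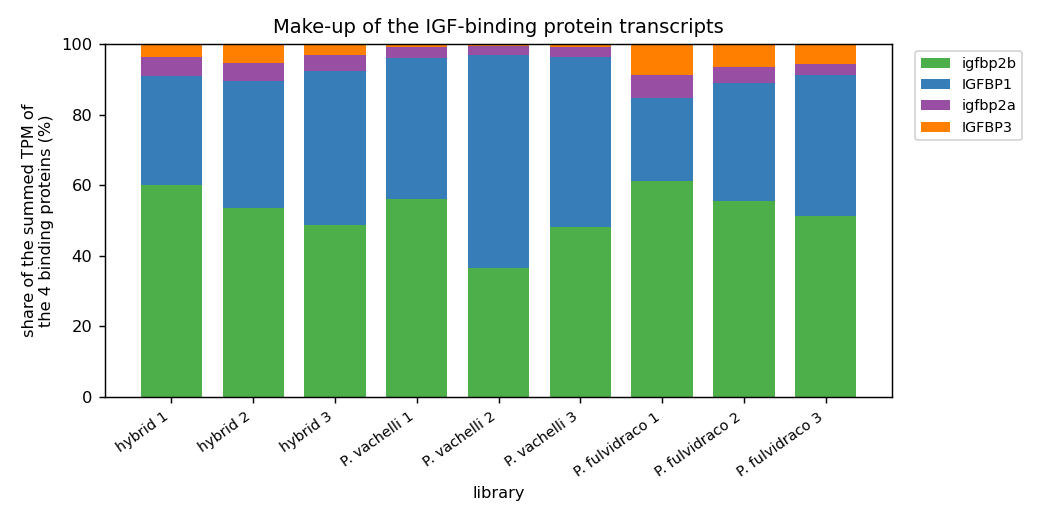
Share (%, vertical axis) of the summed TPM of igfbp2b, IGFBP1, igfbp2a and IGFBP3 held by each, in every library. Bars are single libraries in the order hybrid, P. vachelli, P. fulvidraco. The IGFBP3 part is 0.694 to 0.832% in P. vachelli, and igfbp2b and IGFBP1 fill most of each bar.

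For each member, the symbols most like it were taken as the 3 with the highest Pearson r of log2(TPM + 1) over the 9 libraries, among 6053 symbols. The libraries share their line and scaling, so these r are a description, and a second r with the mean of each line removed is given beside the first. Closest to igf2 was CISH, a feedback inhibitor of growth hormone and cytokine receptors, with r = 0.955, and 0.969 with line means removed. It was followed by gbp, described as a GSK-3-binding protein of the FRAT family, with r = 0.887 and 0.935, and by HS3ST3B1, a heparan sulfate sulfotransferase, with r = 0.882 and 0.871. CISH stood at 99.6, 14.5 and 74.4 TPM in the hybrid, at 2.06, 2.38 and 26.8 TPM in P. vachelli and at 30.9, 5.61 and 36.4 TPM in P. fulvidraco. In the hybrid and in P. fulvidraco the library lowest in igf2 was also lowest in CISH, and in every line the highest library was the same for both. CISH itself was not called in any comparison, with the hybrid minus P. vachelli at 2.89 ± 1.04 (adjusted p = 0.0638).

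**Figure D5:**
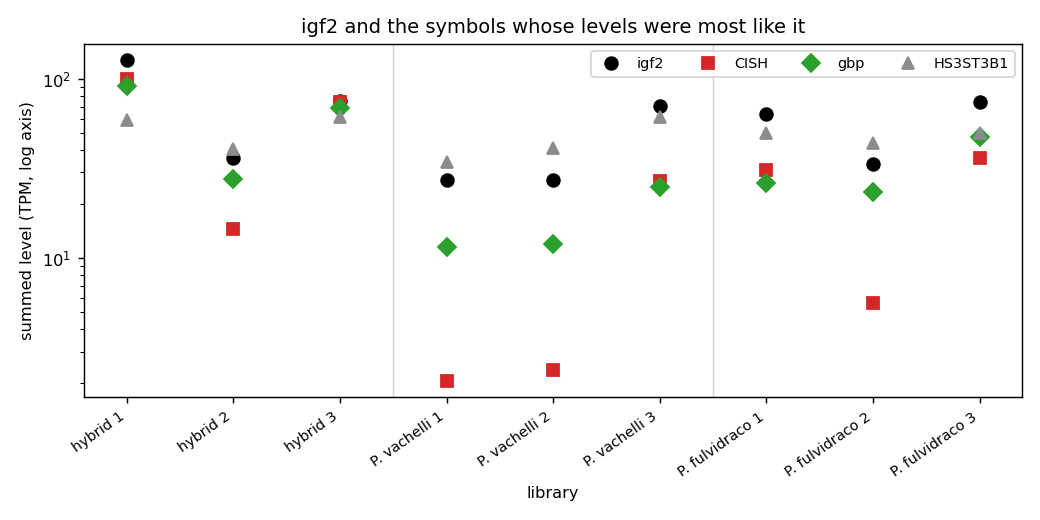
Summed level (TPM, log axis) of igf2, CISH, gbp and HS3ST3B1 in each of the 9 libraries, which stand in the order hybrid, P. vachelli, P. fulvidraco. Each marker is a library's value. Hybrid 2, P. vachelli 1 and 2 and P. fulvidraco 2 are low in both igf2 and CISH, with 27.2 to 36.0 TPM of igf2 and 2.06 to 14.5 TPM of CISH.

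The symbols most like IGFBP1 were ubald1 (r = 0.944), ATG9A, a lipid scramblase of autophagy (r = 0.942), and SCPEP1, a serine carboxypeptidase (r = 0.931), and their r with line means removed lay between 0.904 and 0.923. For igfbp2b they were pam16, a part of the mitochondrial protein import motor (r = 0.951, and 0.960 with line means removed), ING3, a chromatin reader (0.946 and 0.982), and RBM41 (0.913 and 0.948). For IGFALS they were Vhl, the ubiquitin ligase subunit that marks hypoxia-inducible factors (r = 0.970 and 0.915), Rnf216 (0.969 and 0.906) and TRPC4AP (0.962 and 0.911). The r of IGFBP3 and igfbp2a owed more to the lines. For IGFBP3, brox had r = 0.992 and 0.910 with line means removed, mfsd1 had 0.991 and 0.672, and F12, here described as hyaluronan-binding protein 2, had 0.989 and 0.660. For igfbp2a, nr2f5 had r = 0.972 and 0.787, RAB26 had 0.949 and 0.800, and Dgkq had 0.947 and 0.609. Between the members themselves, igfbp2a and IGFBP3 had r = 0.789, IGFALS and IGFBP3 0.771, IGFBP1 and igfbp2a −0.712, and igf2 and IGFBP1 −0.302. Only some of the pairs are given. No r with line means removed was taken for pairs of members, so differences between the lines may enter these values.

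The receptors of the pathway were represented by INSR, the insulin receptor, and IGF2R, which clears IGF2 in mammals. The hybrid was lower than P. vachelli in 1 of these 2, INSR, and higher in 0. In P. vachelli against P. fulvidraco 1 was higher, again INSR, and 0 were lower. Over all symbols 30.5% were called in the first of these comparisons and 48.6% in the second. With 2 symbols the counts are no result about the receptors as a group. INSR averaged 32.7 ± 7.27 TPM in the hybrid, 55.1 ± 1.05 in P. vachelli and 25.4 ± 2.52 in P. fulvidraco. The hybrid was lower than P. vachelli, at −0.76 ± 0.15 (adjusted p = 0.00568), and P. vachelli was higher than P. fulvidraco by 1.09 ± 0.15 (adjusted p = 0.000372). IGF2R stood at 3.54 ± 0.678 TPM in the hybrid, 4.31 ± 0.262 in P. vachelli and 2.95 ± 0.704 in P. fulvidraco and was not called in any of the 4 comparisons. Against P. fulvidraco and against the mid-parent limma called 0 of these 2 receptors in the hybrid, with 0 at an unadjusted p under 0.05 in either. Over all symbols 24.6% and 10.8% were called in these comparisons.

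The other binding proteins measured were IGFBP5, which binds IGF in bone and muscle matrix, and the related IGFBP7. Of these 2, limma called 1 higher in the hybrid against P. vachelli, 0 against P. fulvidraco and 1 higher against the mid-parent. In P. vachelli against P. fulvidraco 1 was lower. Over all symbols 30.5%, 24.6%, 10.8% and 48.6% were called in the same order. IGFBP5 averaged 7.77 ± 1.05 TPM in the hybrid, 2.82 ± 0.115 in P. vachelli and 8.90 ± 1.54 in P. fulvidraco, the same order of lines as for IGFBP3. The hybrid was higher than P. vachelli by 1.19 ± 0.15 (adjusted p = 0.000508), and P. vachelli was lower than P. fulvidraco, at −1.36 ± 0.15 (adjusted p = 8.19e-05). Its hybrid level was also above the mid-parent, by 0.51 ± 0.13 (adjusted p = 0.0351), and minus P. fulvidraco it was −0.17 (adjusted p = 0.434). In the RefSeq table igfbp5a lies beside igfbp2a and igfbp5b beside igfbp2b, and the deposited name does not say which the IGFBP5 rows are. IGFBP7 averaged 20.6 ± 4.30 TPM in the hybrid, 19.4 ± 1.58 in P. vachelli and 17.0 ± 3.59 in P. fulvidraco and was not called. Of the 2 IGF2 mRNA-binding proteins measured, which bind the IGF2 transcript in mammals, limma called 0 in every comparison, and 0 had an unadjusted p under 0.05. The shares over all symbols were the same 30.5%, 24.6%, 10.8% and 48.6%, and 2 symbols are no result about the group.

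From a list of proteases that can cut binding proteins and of their inhibitors, 6 symbols were measured, and none of them was an inhibitor. In the hybrid against P. vachelli 1 was higher and 1 lower, and in P. vachelli against P. fulvidraco 3 were higher and 1 lower. Over all symbols 13.7% were higher and 16.9% lower in the first of these comparisons, and 23.9% were higher and 24.7% lower in the second. Against the mid-parent 0 were higher and 1 was lower in the hybrid, where 4.61% of all symbols were higher and 6.2% lower. Against P. fulvidraco, where 24.6% of all symbols were called, limma called 0, with 2 at an unadjusted p under 0.05. The median log2 difference of the 6 was −0.41 in the hybrid against P. vachelli, 0.26 against P. fulvidraco and 0.022 against the mid-parent, and 0.63 in P. vachelli against P. fulvidraco. Plg, the precursor of plasmin, averaged 2787 ± 167 TPM in the hybrid, 1869.8 ± 49.6 in P. vachelli and 3425 ± 568 in P. fulvidraco. The hybrid was higher than P. vachelli in it by 0.57 ± 0.11 (adjusted p = 0.00529). MMP2, a gelatinase, averaged 39.4 ± 7.44 TPM in the hybrid, 74.0 ± 5.99 in P. vachelli and 43.4 ± 4.62 in P. fulvidraco. Set against P. vachelli, the hybrid was lower in it, at −0.91 ± 0.15 (adjusted p = 0.00212) and lower than the mid-parent, at −0.53 (adjusted p = 0.0328). The 15 measured stellate cell and fibroblast markers summed to 816 to 1178 TPM in the hybrid, 632 to 803 in P. vachelli and 669 to 916 in P. fulvidraco. Without ACTA2, which varied most, the other 14 summed to 368 to 699 TPM in the hybrid, 371 to 488 in P. vachelli and 297 to 367 in P. fulvidraco, and their part in these values was not tested.

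Growth hormone drives liver IGF and the acid labile subunit in vertebrates, and 9 symbols of its axis were tested. In the hybrid against P. vachelli 1 was higher and 0 were lower, against P. fulvidraco 0 were higher and 1 was lower, and in P. vachelli against P. fulvidraco 2 were higher and 2 lower. All symbols gave 30.5%, 24.6% and 48.6% called in the same order. Against the mid-parent, where 10.8% of all symbols were called, limma called 0 in the hybrid, with 2 at an unadjusted p under 0.05. Over the 9 symbols of the axis, the hybrid had a median of 0.15 against P. vachelli, 0.19 against P. fulvidraco and 0.12 against the mid-parent. Between the parents, P. vachelli minus P. fulvidraco, the median was −0.22. GHR, the growth hormone receptor, averaged 57.9 ± 6.07 TPM in the hybrid, 49.7 ± 7.08 in P. vachelli and 83.6 ± 8.64 in P. fulvidraco. The hybrid was lower than P. fulvidraco in GHR, at −0.52 ± 0.13 (adjusted p = 0.0189), and P. vachelli was lower than P. fulvidraco, at −0.74 (adjusted p = 0.00134). Socs2, which dampens signalling of that receptor, averaged 3.33 ± 2.75 TPM in the hybrid, 0.0833 ± 0.144 in P. vachelli and 3.51 ± 1.30 in P. fulvidraco. Its libraries stood at 1.99, 1.51 and 6.49 TPM in the hybrid, at 0.25, 0.00 and 0.00 TPM in P. vachelli and at 4.15, 2.02 and 4.37 TPM in P. fulvidraco. Socs2, the symbol called higher in the hybrid than in P. vachelli, was tested only through the lines where it is high, so that call came with the choice, as did its lower call in P. vachelli against P. fulvidraco. STAT5B, the factor that carries the signal to the nucleus, was higher in P. vachelli than in P. fulvidraco by 0.74 ± 0.19 (adjusted p = 0.00957).

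Insulin lowers liver IGFBP1 in mammals through the kinase AKT and the factor FOXO1, and 14 of 15 symbols found of that route were tested. In the hybrid 2 were higher and 1 lower against P. vachelli, 2 higher and 2 lower against P. fulvidraco, and 2 higher and 2 lower against the mid-parent. In P. vachelli against P. fulvidraco 1 was higher and 3 were lower. Over all symbols the shares called were 30.5%, 24.6%, 10.8% and 48.6%. The medians of the list were −0.032, −0.10, −0.046 and −0.018, near those of all symbols. The adaptor irs2-b averaged 20.3 ± 4.10 TPM in the hybrid, 9.77 ± 0.816 in P. vachelli and 18.3 ± 1.95 in P. fulvidraco, and the hybrid was higher than P. vachelli by 0.97 ± 0.15 (adjusted p = 0.00155). AKT2, a kinase of insulin action, averaged 11.6 ± 1.06 TPM in the hybrid, against 15.7 ± 0.737 TPM in P. vachelli, and the hybrid was lower (−0.41 ± 0.10, adjusted p = 0.0169). The symbol Ppargc1a, here described as a PPAR gamma coactivator-related protein, averaged 4.63 ± 2.33 TPM in the hybrid, 10.2 ± 2.08 in P. vachelli and 21.1 ± 7.65 in P. fulvidraco. The hybrid was lower than P. fulvidraco in it, at −2.02 ± 0.37 (adjusted p = 0.00539) and lower than the mid-parent, at −1.55 ± 0.32 (adjusted p = 0.0189). Pck1, an enzyme of glucose production, was lower in the hybrid than in P. fulvidraco, at −0.84 ± 0.26 (adjusted p = 0.0413). The 2 symbols higher in the hybrid than in P. fulvidraco were akt1, by 0.70 ± 0.18 (adjusted p = 0.0216), and GRB14, by 0.47 ± 0.13 (adjusted p = 0.0276).

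Low oxygen and stress raise IGFBP1 in fish, and 16 symbols of these responses were tested. In the hybrid 1 was higher and 1 lower against P. vachelli, and 1 was higher and 3 were lower against P. fulvidraco. Against the mid-parent limma called 0, with 2 at an unadjusted p under 0.05. In P. vachelli against P. fulvidraco 6 were higher and 4 lower. All symbols gave 30.5% called against P. vachelli, 24.6% against P. fulvidraco, 10.8% against the mid-parent and 48.6% between the parents. The list had medians of −0.12, 0.036, −0.028 and 0.024. The symbol hif1a, here described as hypoxia-inducible factor 3 alpha, averaged 68.6 ± 8.70 TPM in the hybrid, 112.9 ± 3.94 in P. vachelli and 66.3 ± 11.0 in P. fulvidraco. Set against P. vachelli, the hybrid was lower in it, at −0.72 ± 0.13 (adjusted p = 0.00396). Egln3, a hydroxylase that marks these factors for loss, was higher in the hybrid than in P. vachelli by 0.68 ± 0.13 (adjusted p = 0.00444). EPAS1, described as endothelial PAS domain-containing protein 1, was higher in the hybrid than in P. fulvidraco by 0.50 ± 0.14 (adjusted p = 0.0283). The stress factor atf4 averaged 157 ± 9.88 TPM in the hybrid, 138 ± 3.54 in P. vachelli and 224 ± 31.7 in P. fulvidraco, and the hybrid was lower than P. fulvidraco, at −0.50 ± 0.11 (adjusted p = 0.0107).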

How the data were processed

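The authors deposited TPM values for each row of a transcript assembly in each library. Adapters and read quality were handled with cutadapt and FastQC, per the submitters' processing notes. For the aligner, the quantifier and the assembly, nothing is given in the sources used here. The extraction protocol mentions adipose tissue, and the tissue label, liver, was followed. Symbols and descriptions come from the deposited table. 0 columns of values had no sample. TPM keep no depth, so no counting interval is given.

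Rows of a symbol were summed, ignoring case. Features reaching 1 TPM in 3 or more of the 9 libraries, 10815 symbols and 51225 rows, were tested with limma 3.58.1 (R 4.3.3) with an intensity trend on log2(TPM + 1). The pseudocount of 1 understates changes at low levels. All 9 libraries entered 1 fit by line, with two-sided moderated tests. These add prior degrees of freedom, estimated over all tested features, to the 6 residual ones. Benjamini-Hochberg adjustment ran over all tested features, with a threshold of 0.05. Percentages of features called, given beside counts, come from the same fits. Alternatives were other pseudocounts, filters, scalings, a linear mid-parent, a replicate block and libraries left out. Percentages of the linear mid-parent are of the mean of both parental means in TPM. For log2 differences from it, the parental means of log2(TPM + 1) were taken back to the linear scale and averaged. Their tests kept the standard error of the log-scale difference. The test was also run on simulated data with few changed features and independent noise. That setting is unlike these lines, so no support is drawn from it. Libraries of a line had Pearson r between 0.963 and 0.981 across symbols, and none was deposited again.

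The members and lists were chosen with earlier results of these data known. All member rows and sums are given, and other genes named are list genes or the 3 symbols most like each member, from those averaging at least 5 TPM. Each of the 7 pathway lists has its counts in the text. List symbols can carry another description, which is then given for the genes named. Where a symbol has several rows, it is the description of the row with the highest mean level. Genome sequence was not used here.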

Additional observations from a re-analysis of the deposited data

How the results depend on the processing

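Of 460 values of the 6 sums under alternatives, 434 kept direction and side of the threshold, 14 reversed, 6 passed it and 6 lost it. The cause of these changes was not tested. Some alternatives, such as another filter or a library left out of a line not compared, cannot change the difference itself. Most differences were also not called in the main fit. The count is thus no measure of how firm the results are. Depth is unknown and 3 libraries a line limit precision.

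With the replicate number as a block, 3027, 2285, 790 and 5087 symbols were called in the hybrid against P. vachelli, P. fulvidraco and the mid-parent and in P. vachelli against P. fulvidraco, against 3302, 2664, 1169 and 5251 without it. IGFBP1 in P. vachelli against P. fulvidraco was then called (0.92, adjusted p = 0.017). For igf2 the hybrid minus P. vachelli stayed at 0.89 and was not called (adjusted p = 0.106). Its standard error was 0.36 with the block, against 0.52 without it. Whether the numbers pair the libraries is not known. Over all symbols, deviations of same-numbered libraries correlated at −0.068 to 0.055, and those of differently numbered ones at −0.059 to 0.066. Of 9 libraries, 1 correlated best with its own number in both other lines. Such correlations over all symbols cannot exclude a pairing that acts on some of them.

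Leaving out each library in turn gave 2263 to 3391 calls for the hybrid against P. vachelli, 1679 to 2547 against P. fulvidraco (1753 without hybrid 2, 1679 without P. fulvidraco 2), 459 to 1229 against the mid-parent and 4505 to 5453 for P. vachelli against P. fulvidraco. For igf2 in the hybrid against P. fulvidraco the range was −0.056 to 0.84, for IGFBP1 −0.24 to 0.55 and for igfbp2b −0.22 to 0.073. IGFALS against the mid-parent ranged from −0.072 to 0.027. In P. vachelli against P. fulvidraco, IGFALS ranged from −0.44 to −0.24, IGFBP1 from 0.52 to 1.30, igfbp2a from −0.40 to −0.29 and igfbp2b from −0.11 to 0.19.

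Without both P. fulvidraco libraries rich in egg yolk transcripts, 977 symbols were called in the hybrid against P. fulvidraco and 600 against the mid-parent. The hybrid minus P. fulvidraco was then −0.082 for igf2, −0.60 for IGFBP1, −0.45 for IGFALS (adjusted p = 0.0338) and −0.90 for IGFBP3 (adjusted p = 0.0791). P. vachelli minus P. fulvidraco was −0.33 for igfbp2a, −0.30 for igfbp2b, 0.15 for IGFBP1 and −0.97 for igf2.

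Against the mid-parent, median-ratio scaling gave 0.022 for IGFALS and 0.33 for igfbp2a, quantile normalization gave 0.34 for igfbp2a, and the linear mid-parent gave −0.012 for IGFBP3. Quantile normalization gave 1.03 for IGFBP1 in P. vachelli against P. fulvidraco. Of the symbols called against the mid-parent, 42.7% were higher in the hybrid, against 54.8% under median-ratio scaling and 23.7% with the linear mid-parent.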

Other observations

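2 further rows related to IGF were found by their descriptions or symbols after the values had been seen. A row without a symbol, described as part of IGF-II-B, stood at 0.60, 3.18 and 0.39 TPM in the hybrid, at 3.43, 1.50 and 0.33 TPM in P. vachelli and at 1.45, 1.22 and 0.86 TPM in P. fulvidraco. It was not called in any comparison. The insulin symbol ins, a pancreatic islet marker, stood at 17.8, 146.5 and 25.0 TPM in the hybrid, at 5.70, 4.19 and 1.92 TPM in P. vachelli and at 5.18, 61.3 and 39.8 TPM in P. fulvidraco. In the fit over rows, the hybrid was higher than P. vachelli in ins by 3.16 ± 0.97 (adjusted p = 0.0393). Hybrid 2, the library highest in ins, was the lowest hybrid library in igf2 and the highest hybrid library in IGFBP3. The other lines did not repeat this. P. fulvidraco 2, highest in ins of its line, was lowest there in igf2 but also in IGFBP3, at 14.6 TPM. P. vachelli 1, highest in ins of its line, was neither lowest there in igf2 nor highest in IGFBP3.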
